A study of Homo sapiens with 12 samples.

Results

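CYTIP and the 4 cytohesins, CYTH1 to CYTH4, were described in Nalm-6 cells from a library labelled RUNX1 (the RUNX1-labelled library) and from a control library. These 5 genes are 5 of the 57905 human genes counted. They were chosen by earlier results of these libraries, in which the UMIs of CYTIP had one of the highest ratios between them, so the differences between libraries are given as a description with no test. Nalm-6 is a leukemia line of human B-cell precursors, and single-cell RNA-seq was made from 1 library per group, both labelled 72 h. The RUNX1-labelled library held cells with a doxycycline-inducible RUNX1 construct and 500 ng/ml doxycycline. The control carries the genotype label empty vector, is titled with the solvent DMSO, and has no doxycycline in its labels, so an effect of RUNX1 cannot be told apart from one of the vector, the inducer or the culture. A Nalm-6 library kept in DMSO for a shorter time, described in the methods of the study, had as many cells within the same limits as the control, so it is uncertain whether the control held the empty vector and for how long it was cultured.

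CYTIP, the cytohesin-interacting protein, is a leukocyte scaffold with a PDZ domain and a coiled coil that binds cytohesins and can hold them away from the membrane. Cytohesins are exchange factors that load ARF GTPases with GTP. They are drawn to the plasma membrane by phosphoinositides that PI3 kinase makes, and CYTH1 was found to bind the beta2 chain of the integrin LFA-1 and to raise its adhesion. CYTH1, CYTH2 and CYTH3 are made in many tissues, and CYTH4 is mostly a gene of blood cells.

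After the cell limits, 4800 of 5491 barcodes remained in the RUNX1-labelled library and 5598 of 6073 in the control, with 75350615 human UMIs (molecules counted once) in the RUNX1-labelled library and 75754137 in the control. The median cell held 14805 UMIs in the RUNX1-labelled library and 12505.5 in the control. Mitochondrial genes took 13.1% of UMIs in the RUNX1-labelled library and 9.45% in the control. The libraries shared 12 barcodes. RUNX1 itself went against the label, with 30.4 CPM (UMIs of a gene scaled to the UMIs of the whole library) in the RUNX1-labelled library and 69.7 CPM in the control. Where tags from the construct would be counted is not given in the sources used here. Of 12 B precursor markers found, all reached 10 CPM in either library or both. T and NK cell markers summed to 31.9 CPM in the RUNX1-labelled library, of which NKG7 made up 21.6 CPM, against 15.3 CPM in the control, and CD3D, CD3G, CD5 and CD7 were at 0 UMIs in both. Myeloid and dendritic cell markers summed to 6.68 CPM in the RUNX1-labelled library and 6.82 CPM in the control, with ITGAX, S100A8, S100A9, FCGR3A and CLEC9A at 0 UMIs in both, and erythroid markers held 1 UMI in each. The part of any other cell type in the results was not tested. There is 1 library per group and so no replicate check, and the 95% intervals given cover the error of counting alone.

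CYTIP lies on the minus strand of chromosome 2, at chr2:158271131-158345473 in GRCh37. Its RefSeq transcript starts inside this annotated gene, and the stretch just before that start is shown because RUNX1 is a DNA-binding factor and CYTIP had the largest ratio of the 5 genes. The 250 bases end at the base before the start and match GRCh37 once, at chr2:158300602-158300851 (chr2:157444090-157444339 in GRCh38.p14, the build of the RefSeq table). Capitals mark the one match to TGTGGT, the core letters of RUNX sites, read here on the opposite strand as ACCACA.

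CYTIP: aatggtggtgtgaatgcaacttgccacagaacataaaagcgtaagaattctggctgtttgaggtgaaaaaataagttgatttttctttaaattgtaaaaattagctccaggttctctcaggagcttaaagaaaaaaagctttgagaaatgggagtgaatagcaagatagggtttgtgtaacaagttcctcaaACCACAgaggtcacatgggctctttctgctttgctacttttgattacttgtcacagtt

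The match lies 58 to 53 bases before the start. TGTGGT on either strand was found in 11.0% of 35091 promoter windows of this length, and a match is a description of letters and not of binding. The ETS core letters AGGAAG, on either strand, were not in the CYTIP window and were in 28.7% of all windows. The 3 CYTH1 windows, the 1 CYTH2 window and the 2 CYTH3 windows held no TGTGGT, and AGGAAG occurred once in 1 CYTH1 window and 2 times in 1 CYTH3 window. The G and C content was 37.2% in the CYTIP window and between 48.4% and 86% in the cytohesin windows.

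CYTIP (ENSG00000115165) was nearly silent in the control and a well-counted transcript in the RUNX1-labelled library. It had 5897 UMIs in the RUNX1-labelled library, or 78.3 CPM (95% Poisson interval 76.3 to 80.3), against 135 UMIs or 1.78 CPM (1.49 to 2.11) in the control. CYTIP was chosen with its high ratio known, so the gap between these intervals followed from the choice and is a description. The level was 43.9-fold higher in the RUNX1-labelled library, a log2 ratio of 5.46 (exact conditional binomial interval 5.21 to 5.71), which was number 26 from the top of the 7980 genes that reached 10 CPM in either library. Of these genes, 5.18% were higher by 2-fold or more in the RUNX1-labelled library and 4.1% lower by as much, with a median log2 ratio of -0.13. The number of genes on each side moved with the scaling, and the higher genes made up 55.8% of those past 2-fold as scaled here, 39.3% with TMM scaling, 73.3% with median-of-ratios scaling and 83.7% when mitochondrial and ribosomal protein genes were left out of the totals. The median over all genes was -0.26 with TMM scaling, 0.013 with median-of-ratios scaling and 0.14 with the reduced totals, and CYTIP kept a log2 ratio above 5. With a mitochondrial limit of 10% in place of 20% the CYTIP ratio was 6.07.

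**Figure D1:**
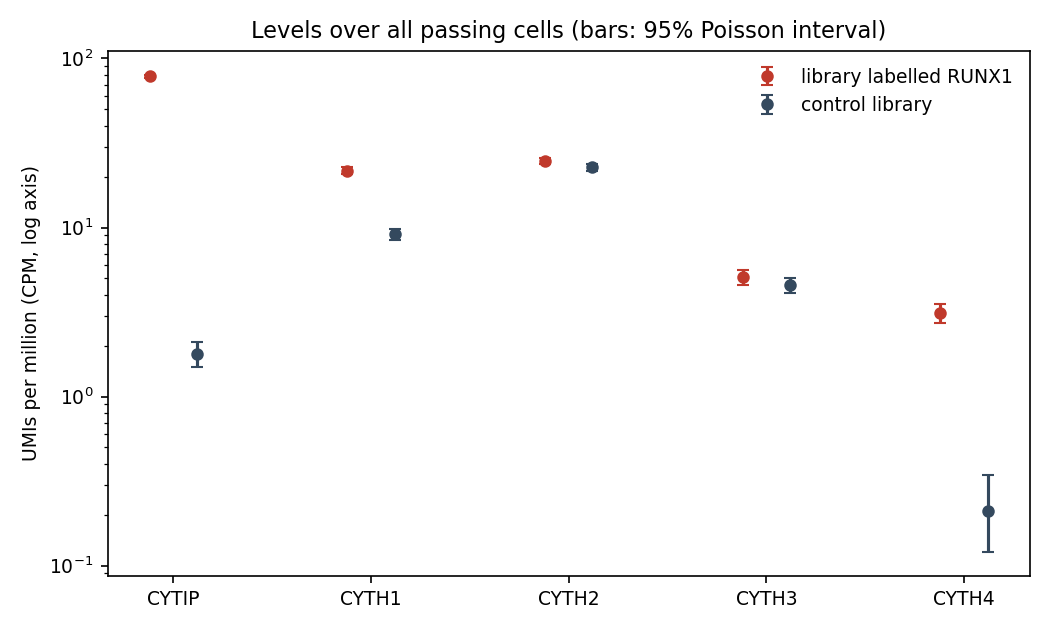
Levels of the 5 genes (CPM, log axis) over all passing cells of the RUNX1-labelled library (red) and the control library (dark blue), with 95% Poisson intervals that cover counting error only. CYTIP stands at 78.3 CPM in the RUNX1-labelled library and 1.78 CPM in the control, while CYTH2 is at 24.8 CPM in the RUNX1-labelled library and 22.7 CPM in the control.

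CYTH1, or cytohesin-1, was also higher in the RUNX1-labelled library. CYTH1 (ENSG00000108669, chr17:76670130-76778379, minus strand) had 1632 UMIs or 21.7 CPM (20.6 to 22.7) in the RUNX1-labelled library, against 690 UMIs or 9.11 CPM (8.44 to 9.81) in the control. The log2 ratio was 1.25 (1.12 to 1.38), number 291 of the 7980 genes. CYTH4 (ENSG00000100055, chr22:37678068-37711382, plus strand), the blood cell cytohesin, had 234 UMIs or 3.11 CPM (2.72 to 3.53) in the RUNX1-labelled library and 16 UMIs or 0.211 CPM (0.121 to 0.343) in the control, a log2 ratio of 3.88 (3.15 to 4.71). CYTH4 stayed under 10 CPM in both libraries and so has no place among the 7980 genes, and its ratio rests on 16 control UMIs.

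CYTH2 and CYTH3 differed little between the libraries. CYTH2 (ENSG00000105443, chr19:48972465-48985571, plus strand), also known as ARNO, had 1866 UMIs or 24.8 CPM (23.7 to 25.9) in the RUNX1-labelled library and 1722 UMIs or 22.7 CPM (21.7 to 23.8) in the control. Its log2 ratio of 0.12 (0.028 to 0.22) was number 2506 of the 7980 genes, and it was -0.0042 with TMM scaling. CYTH3 (ENSG00000008256, chr7:6201410-6312275, minus strand), also known as GRP1, had 384 UMIs or 5.10 CPM (4.60 to 5.63) in the RUNX1-labelled library and 345 UMIs or 4.55 CPM (4.09 to 5.06) in the control. Its log2 ratio was 0.16 (-0.051 to 0.38), and it too was under 10 CPM. So 3 of the 5 genes reached 10 CPM. Of those 3, CYTIP, whose ratio led to the choice of these genes, and CYTH1 were past 2-fold. Both reached 10 CPM only in the RUNX1-labelled library, where they were higher. The floor thus favoured higher genes, and the count and the ranks of CYTIP and CYTH1 are a description. Over all 7980 genes, 5.18% were higher by 2-fold or more and 4.1% lower by as much. Genes annotated over the 5 held at most 5 UMIs in either library, the most being an antisense RNA over CYTH2.

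Summed over the family, cytohesins had 54.6 CPM (53.0 to 56.3) in the RUNX1-labelled library and 36.6 CPM (35.26 to 37.99) in the control. CYTH1 made up 39.7% of the cytohesin UMIs in the RUNX1-labelled library and 24.9% in the control. CYTH4 made up 5.69% in the RUNX1-labelled library and 0.577% in the control. CYTH2 made up 45.3% of them in the RUNX1-labelled library and 62.1% in the control, and CYTH3 made up 9.33% in the RUNX1-labelled library and 12.4% in the control. These shares come from a 3' assay and were not scaled by transcript length, so they are set against each other between libraries and not between genes. For each cytohesin UMI there were 1.43 CYTIP UMIs in the RUNX1-labelled library and 0.0487 in the control.

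The 2 libraries differed in the phase of their cells, so the genes were also read within cycling state. Phase was scored from 42 S phase and 54 G2/M genes after every cell was thinned to 8000 UMIs, which left 612 cells of the RUNX1-labelled library and 413 of the control with no call. G1 calls, named non-cycling here, made up 51.3% of called cells in the RUNX1-labelled library (2150 of 4188, Clopper-Pearson interval 49.8% to 52.9%) and 4.51% in the control (234 of 5185, 3.96% to 5.11%). Within 0.02 of the limit of the call lay 197 cells of the RUNX1-labelled library and 86 control cells.

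CYTIP was higher in the RUNX1-labelled library in both states. In cycling cells it had 911 UMIs or 21.6 CPM in the RUNX1-labelled library and 123 UMIs or 1.75 CPM in the control, a log2 ratio of 3.63 (3.35 to 3.91). In non-cycling cells it had 4147 UMIs or 142 CPM in the RUNX1-labelled library and 5 UMIs or 1.94 CPM in the control, a log2 ratio of 6.19 (4.97 to 7.82). The difference between these 2 ratios was not tested, and the second rests on 5 control UMIs. For comparison, 1.79% of 7717 genes were 2-fold or more higher and 1.53% lower by as much in cycling cells, and 8.14% of 7982 genes were 2-fold or more higher and 6.15% lower by as much in non-cycling cells. The higher genes made up 53.9% of those past 2-fold in cycling cells, and 72.7% with median-of-ratios scaling or 78.1% without mitochondrial and ribosomal protein genes in the totals. In non-cycling cells they made up 57.0%, and 77.3% without mitochondrial and ribosomal protein genes in the totals.

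In cycling cells CYTH1 stood at 16.1 CPM in the RUNX1-labelled library and 9.15 CPM in the control, a log2 ratio of 0.81 (0.66 to 0.97) that is under 2-fold. In non-cycling cells CYTH1 had 25.8 CPM in the RUNX1-labelled library and 10.1 CPM in the control, a log2 ratio of 1.36 (0.80 to 1.98). CYTH4 had 53 UMIs (1.26 CPM) in cycling cells of the RUNX1-labelled library and 14 UMIs (0.199 CPM) in cycling control cells, a log2 ratio of 2.66 (1.79 to 3.62). In non-cycling cells CYTH4 had 151 UMIs in the RUNX1-labelled library and 2 UMIs in the control, with a counting interval of the log2 ratio from 0.86 to 5.79. CYTH2 had a log2 ratio of -0.10 (-0.22 to 0.017) in cycling cells and 0.17 (-0.20 to 0.56) in non-cycling cells. CYTH3 had -0.098 (-0.37 to 0.17) in cycling cells and -0.037 (-0.78 to 0.80) in non-cycling cells, and all of these intervals hold 0. For CYTH2 the interval left out 0 in cycling cells with TMM scaling (-0.24 to -0.0015) and in non-cycling cells with phase called at 5000 UMIs (0.010 to 0.61). In cycling cells the alternatives gave CYTH2 a log2 ratio from -0.12 to 0.080 and CYTH3 one from -0.14 to 0.084. In non-cycling cells they gave CYTH2 one from 0.23 to 0.34 and CYTH3 one from 0.024 to 0.65. The direction for CYTH3 in non-cycling cells thus changed with the processing.

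**Figure D2:**
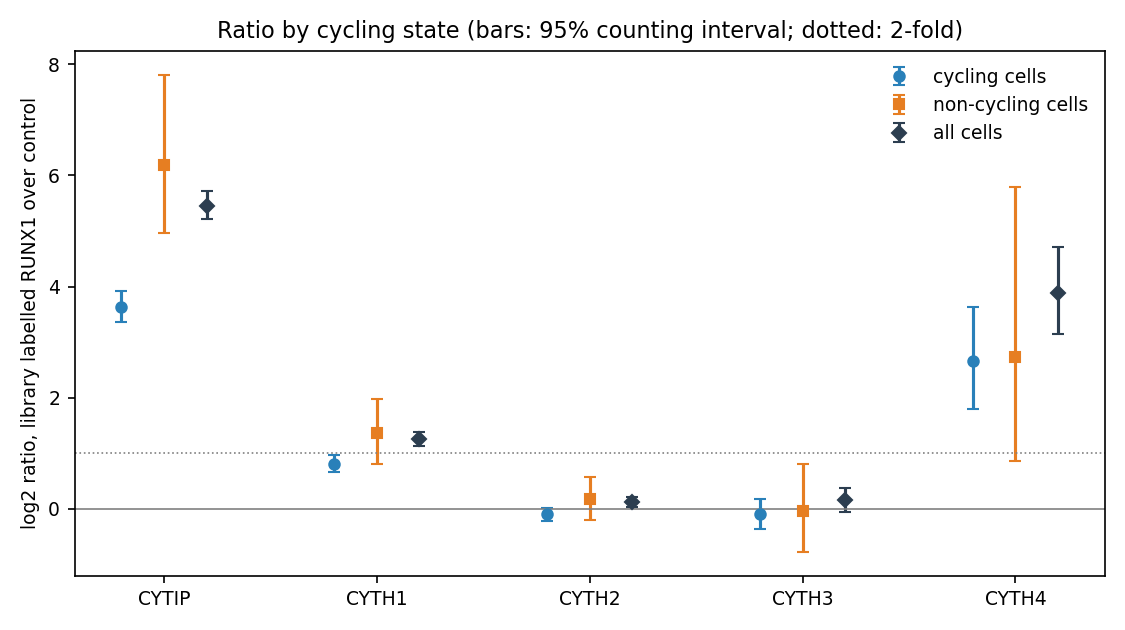
Log2 ratio of the RUNX1-labelled library over the control for each gene in cycling cells (circles), non-cycling cells (squares) and all passing cells (diamonds), with 95% counting intervals and a dotted line at 2-fold. CYTIP is at 3.63 in cycling, 6.19 in non-cycling and 5.46 in all cells, and the CYTH2 and CYTH3 points lie near 0.

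Within the RUNX1-labelled library, CYTIP was the gene of the 5 that differed most by state. Its level was 6.54-fold higher in non-cycling than in cycling cells, a log2 ratio of 2.71 (2.61 to 2.81). The same log2 ratio was 2.03 (1.57 to 2.51) for CYTH4, 0.68 (0.53 to 0.84) for CYTH1, 0.51 (0.21 to 0.82) for CYTH3 and 0.36 (0.23 to 0.50) for CYTH2. These are levels per UMI, and non-cycling cells held fewer UMIs, 29290439 in 2150 cells against 42079417 in 2038 cycling cells. Per cell, non-cycling against cycling, CYTIP had 1.93 and 0.447 UMIs and CYTH4 0.0702 and 0.0260. CYTH1 had 0.352 and 0.332, CYTH3 0.0823 and 0.0873, and CYTH2 0.374 and 0.441. The share of all genes past 2-fold between states was not computed. In the control the log2 ratio of non-cycling over cycling cells was 0.15 for CYTIP, with an interval from -1.50 to 1.41 that leaves the direction unknown. Between G2/M and S cells of the RUNX1-labelled library, CYTIP differed by a log2 ratio of -0.024 (-0.21 to 0.17). Cells with no call, which had under 8000 UMIs, held CYTIP at 211 CPM in the RUNX1-labelled library and at 2.39 CPM (7 UMIs) in the control. Per cell, those of the RUNX1-labelled library held 1.37 CYTIP UMIs, fewer than its non-cycling cells.

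RNA set free from other cells was not removed, and its part in the cycling cells was not tested. The percentages that follow describe the RUNX1-labelled library and do not measure that part. In the RUNX1-labelled library, the CYTIP level in cycling cells was 15.3% (14.2% to 16.4%) of that in non-cycling cells. The same percentage was 15.5% for CCL3 and 11.1% for CCL4, a pair of chemokine genes, 10.1% for FCER1G, an ITAM adaptor, and 8.44% for IL4I1, a secreted amino acid oxidase, all of which had under 10 UMIs in called control cells. It was 17.0% (15.5% to 18.7%) for the integrin gene ITGB7 and 38.4% (37.7% to 39.0%) for C12orf75. It was 24.4% (17.5% to 33.6%) for CYTH4 and 62.3% (56.0% to 69.1%) for CYTH1. Doublets were not called.

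CYTIP was spread unevenly over cells. Among cells thinned to 8000 UMIs, 34.8% (1456 of 4188, 33.3% to 36.2%) had a CYTIP UMI in the RUNX1-labelled library, against 1.31% (68 of 5185, 1.02% to 1.66%) in the control, and without thinning the shares were 47.6% in the RUNX1-labelled library and 2.32% in the control. In non-cycling cells the share was 55.0% (52.8% to 57.1%) in the RUNX1-labelled library and 1.28% (3 of 234 cells) in the control. In cycling cells it was 13.44% (11.99% to 15.003%) in the RUNX1-labelled library and 1.31% (1.01% to 1.67%) in the control. The highest cell thinned to 8000 UMIs held 14 CYTIP UMIs in the RUNX1-labelled library and 1 in the control. Without thinning the highest cell held 16 in the RUNX1-labelled library and 2 in the control. No cell type that should lack CYTIP was in the deposited cells, so the background share within a library is unknown.

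The Fano factor of the thinned counts, the variance over the mean, which is 1 for pure counting noise, was 2.36 for CYTIP in non-cycling cells of the RUNX1-labelled library and 1.77 in cycling cells. It lay between 0.97 and 1.15 for the cytohesins in those non-cycling cells. Of the non-cycling cells of that library, 113 of 2150 (5.26%) held 5 or more CYTIP UMIs, against 7 of 2038 cycling cells (0.343%). In the RUNX1-labelled library CYTH1 was seen in 16.5% of thinned cells, CYTH2 in 17.9%, CYTH3 in 3.92% and CYTH4 in 2.65%. In the control CYTH1 was seen in 7.12%, CYTH2 in 17.0%, CYTH3 in 3.41% and CYTH4 in 0.212%.

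**Figure D3:**
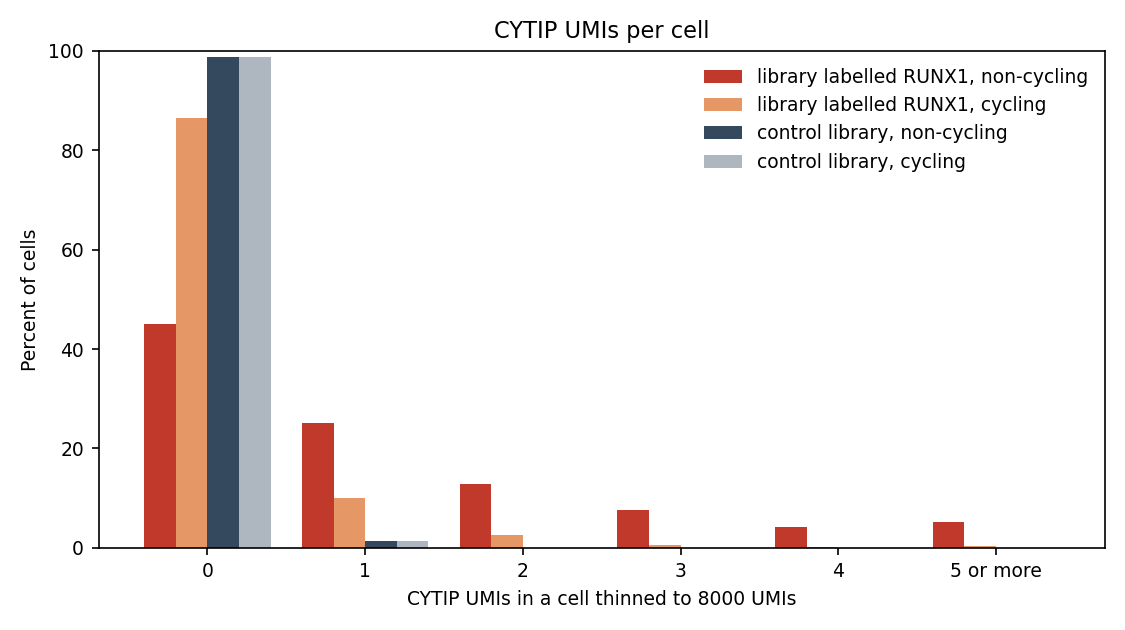
Percent of cells (vertical axis, from 0 to 100) by the number of CYTIP UMIs in a cell thinned to 8000 UMIs, for non-cycling and cycling cells of each library. In the RUNX1-labelled library, 45.0% of non-cycling cells and 86.6% of cycling cells had none, against 98.7% of both kinds of control cells.

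Cells with and without a CYTIP UMI were compared within a state. In non-cycling cells of the RUNX1-labelled library, CYTH1 was seen in 22.8% (20.5% to 25.3%) of the 1182 cells with a CYTIP UMI and in 17.36% (15.02% to 19.89%) of the 968 cells without. CYTH4 was seen in 5.41% (4.19% to 6.86%) of the cells with a CYTIP UMI and in 3.00% (2.02% to 4.27%) of those without. In cycling cells CYTH1 was seen in 20.8% (16.2% to 26.1%) of 274 cells with a CYTIP UMI and in 11.2% (9.79% to 12.8%) of 1764 without. CYTH4 was seen in 2.92% of the cycling cells with a CYTIP UMI (8 cells) and in 0.567% of those without (10 cells). CYTH2 was seen in 22.7% of non-cycling cells with a CYTIP UMI and 19.3% of those without. In cycling cells the CYTH2 shares were 18.2% with and 13.9% without, and its intervals overlap in both states. CYTH3 was seen in 5.25% of non-cycling cells with a CYTIP UMI and 5.27% of those without. Cells of 1 library are not replicates, so these shares describe that library.

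The G1 cells of the RUNX1-labelled library were then split by thinned UMIs of 5 genes that mark groups among them, which were known from earlier results and are no finding. Cells with C1orf141 or LINC00967 were set apart first, then those of the rest with CCL3 or CCL4, then those with FCER1G. The first group also held CCL3 at 92.6 CPM and CCL4 at 68.5 CPM, so the second is not all of the cells with these chemokines. CYTIP was at 235 CPM (226 to 245) in the 804 G1 cells of the group with CCL3 or CCL4, the highest level of the 9 groups. It was 153 CPM (143 to 164) in 438 G1 cells with FCER1G but without those chemokines, and 112 CPM (99.7 to 125) in 223 G1 cells with C1orf141 or LINC00967. G1 cells with none of these genes, 685 in number, had 61.7 CPM (57.2 to 66.5). The S and G2/M cells of this library followed at 21.8 and 21.5 CPM, and their intervals overlap. Control G1, S and G2/M cells were at 1.94, 2.02 and 1.42 CPM, also with overlapping intervals. Depth differed between the 4 G1 groups, and the median cell held 11122 UMIs with CCL3 or CCL4, 12050 with FCER1G, 10935 with C1orf141 or LINC00967 and 15832 with none of these.

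CYTH1 had its highest level in the same group, at 37.1 CPM (33.4 to 41.1) in G1 cells with CCL3 or CCL4, 29.42 CPM in those with FCER1G and 27.04 CPM in those with C1orf141 or LINC00967, where the intervals overlap. It stood at 14.0 CPM (11.9 to 16.3) in G1 cells with none of these, close to 14.7 CPM (13.1 to 16.4) in S cells, and between 8.56 and 10.1 CPM in the control groups. CYTH4 was at 7.70 CPM in G1 cells with CCL3 or CCL4 and 8.20 CPM in those with FCER1G, and at 2.24 CPM or less in the other 7 groups. Its interval in the CCL3 or CCL4 group, 6.06 to 9.66, did not overlap that in the C1orf141 or LINC00967 group, 0.585 to 4.21. CYTH2 ranged from 18.7 to 37.5 CPM over the 9 groups and CYTH3 from 3.69 to 8.29 CPM, and both had their highest level in G1 cells with C1orf141 or LINC00967.

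**Figure D4:**
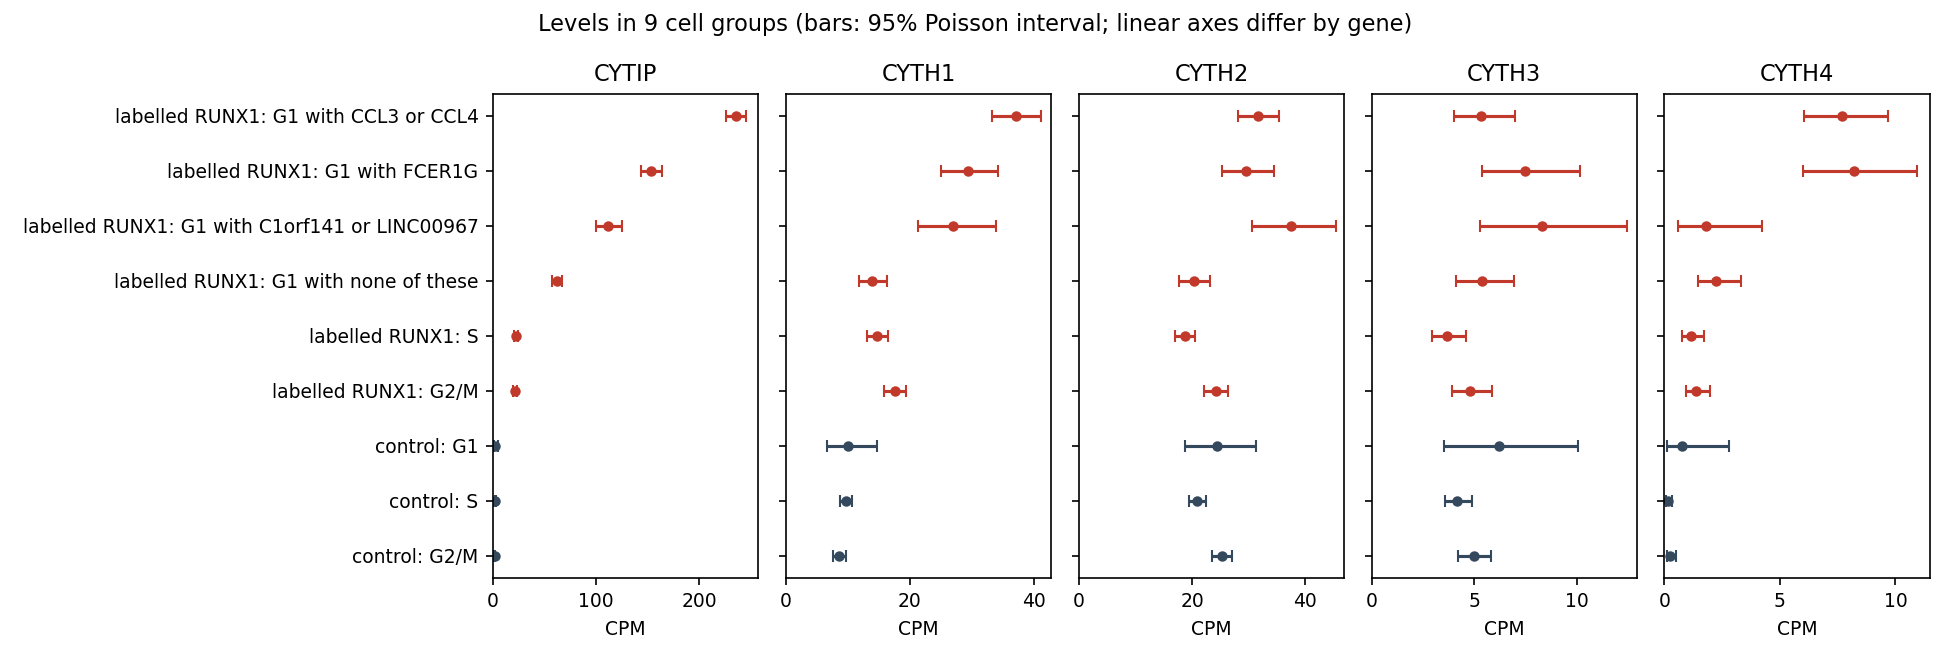
Levels (CPM, linear axes that differ by gene) of the 5 genes in 6 cell groups of the RUNX1-labelled library (red) and 3 of the control (dark blue), with 95% Poisson intervals. CYTIP is at 235 CPM in G1 cells with CCL3 or CCL4 and at 61.7 CPM in G1 cells with none of the grouping genes, while CYTH2 has its highest level, 37.5 CPM, in G1 cells with C1orf141 or LINC00967.

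Over these 9 groups the pattern of CYTIP, as log2(CPM + 1), had a Pearson r of 0.94 with CYTH1, 0.89 with CYTH4, 0.52 with CYTH2 and 0.46 with CYTH3. The 9 points come from only 2 libraries and share their depth and phase calls, so r is a description. Among 8863 genes the closest to CYTIP were C12orf75 (r = 0.997), PGPEP1, ITGB7, which encodes the integrin beta7 chain, ARID3B and IL4I1, and 282 genes had an r of 0.95 or more. The closest to CYTH1 were IKBKB, a kinase of NF-kB signalling, RIT1, FGFBP2, SLAMF1 and HIP1. The closest to CYTH4 were BLK, a B cell Src-family kinase (r = 0.998), NDEL1, ZNF787, PRKCE and ORAI2. CYTH2 was closest to TRAFD1, PTTG1IP, ZNF271, TMBIM4-1 and SHKBP1, and CYTH3 to BCORL1, AKIRIN2, ZNF500, NEMF and FRS2, with 23 genes for CYTH2 and 4 for CYTH3 at an r of 0.95 or more. No annotated gene within 500 kb of CYTIP reached 10 CPM. The most counted of them, ACVR1, named after its values were seen, had 456 UMIs in the RUNX1-labelled library and 156 in the control. Its log2 ratio was 1.56 (1.29 to 1.83). The other counted ones held at most 36 UMIs in either library.

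Among 13 direct partners of CYTIP or the cytohesins, 6 were at 10 CPM or more, of which 1 was higher by 2-fold or more and 1 lower by as much, with a median log2 ratio of -0.13, beside -0.13 over all 7980 genes. Of those 7980 genes, 5.18% were higher by 2-fold or more and 4.1% lower. The counts in each list that follows stand beside these shares. IPCEF1, a protein that binds cytohesins and raises their exchange activity, had 55.2 CPM in the RUNX1-labelled library and 21.2 CPM in the control (log2 ratio 1.38, 1.29 to 1.46). ARRB1, the scaffold beta-arrestin 1, had 6.66 CPM in the RUNX1-labelled library and 16.1 CPM in the control (-1.28, -1.43 to -1.12). SNX27, a sorting nexin that binds CYTIP, had a log2 ratio of -0.36 and ARRB2 one of -0.23. GRASP, or tamalin, a PDZ scaffold related to CYTIP that was under 10 CPM and was named after its values were seen, had 287 UMIs in the RUNX1-labelled library and 37 in the control (2.96, 2.47 to 3.50).

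ARF GTPases are the targets of the cytohesins. None of the 5 was past 2-fold, with a median log2 ratio of -0.18. ARF6, the ARF of the plasma membrane, had 34.6 CPM in the RUNX1-labelled library and 55.3 CPM in the control (-0.68, -0.75 to -0.61), and ARF1, ARF3 and ARF5 had -0.28, -0.18 and 0.091. None of 5 measured of 11 other ARF exchange factors was past 2-fold, with a median of 0.097, and FBXO8, GBF1, IQSEC1 and ARFGEF1 had 0.35, -0.17, 0.13 and 0.097. Among 15 measured of 23 ARF GTPase-activating proteins, which switch ARFs off, 1 was higher by 2-fold or more, with a median of 0.067. That gene was ACAP1, an ARF6-directed one, with 159.6 CPM in the RUNX1-labelled library and 33.2 CPM in the control (2.26, 2.20 to 2.33). ARAP1, ASAP2 and AGFG1 followed at 0.82, -0.56 and -0.55.

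Of 9 measured of 12 genes for PI3 kinase and its lipid phosphatases, none was past 2-fold, with a median of 0.21. PIK3R1, the p85alpha regulatory subunit, had 63.6 CPM in the RUNX1-labelled library and 113.9 CPM in the control (-0.84), the lipid phosphatase genes INPP5D and INPPL1 had -0.68 and 0.53, and PIK3CG had -0.40. Among 13 measured of 19 genes of LFA-1, its ligands and its activation, 1 was higher by 2-fold or more and 2 lower by as much, with a median of -0.024. ICAM2, an LFA-1 ligand, had 79.4 CPM in the RUNX1-labelled library and 24.6 CPM in the control (1.69). The other listed ligands, ICAM1 and ICAM3, were under 10 CPM, were named after their values were seen, and had 1.49 and 1.70. RASGRP2, an exchange factor for RAP1, had 33.3 CPM in the RUNX1-labelled library and 71.2 CPM in the control (-1.10). ITGB2, the beta2 chain, had 6.20 CPM in the RUNX1-labelled library and 12.5 CPM in the control (-1.01), and APBB1IP had -0.99. RASGRP2 and ITGB2 were under 2-fold with median-of-ratios scaling and with the reduced totals. For this list the reduced totals gave 3 higher genes, 0 lower and a median of 0.45. TMM scaling gave 1 higher, 3 lower and a median of -0.15, and a gene floor of 1 CPM gave 4 higher and 2 lower. ITGAL, the alpha chain of LFA-1, named after its values were seen, had 6 UMIs in the RUNX1-labelled library and 4 in the control.

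The lists were also read within cycling state, where some of these genes had other ratios than over all cells. ITGB2 had a log2 ratio of -0.30 (-0.47 to -0.13) in cycling cells and -3.15 (-3.85 to -2.43) in non-cycling cells. RASGRP2 had -0.56 (-0.64 to -0.49) in cycling cells and -2.43 (-2.71 to -2.14) in non-cycling cells. IPCEF1 had 0.38 (0.26 to 0.49) in cycling cells and 1.37 (1.07 to 1.70) in non-cycling cells. In cycling cells ACAP1 had 1.53, ICAM2 1.19 and ARRB1 -1.11, and in non-cycling cells ACAP1 had 2.25, ICAM2 1.67 and ARRB1 -1.48. The differences between states were not tested. In cycling cells 1 of 14 measured ARF GTPase-activating proteins and 1 of 12 LFA-1 genes were higher by 2-fold or more, and 1 of 6 partners was lower by as much. Over all genes in cycling cells, 1.79% were higher and 1.53% lower. In non-cycling cells 2 of 14 LFA-1 genes were higher and 3 lower, 1 of 9 PI3 kinase genes was higher and 2 lower, and 1 of 14 ARF GTPase-activating proteins was higher. Of 7 partners, 2 were higher there and 1 lower. Over all genes in non-cycling cells, 8.14% were higher and 6.15% lower. Counts of 1 to 3 genes in lists this short are no result about a pathway. No ARF GTPase or other exchange factor was past 2-fold in either state.

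**Figure D5:**
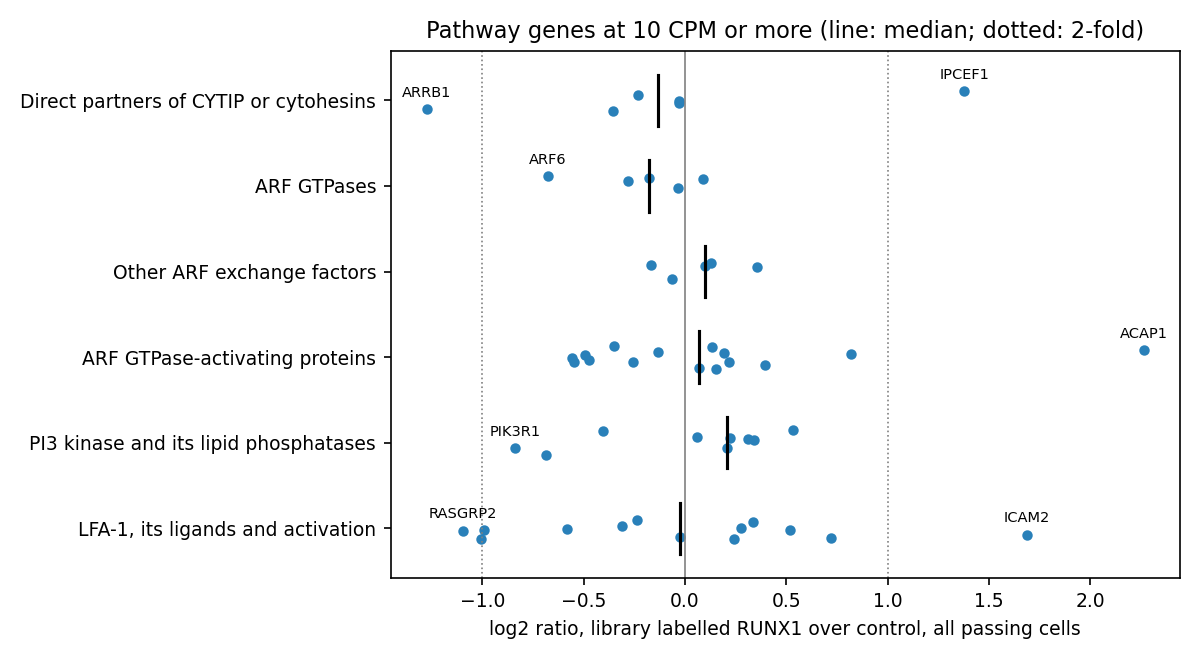
Log2 ratio of the RUNX1-labelled library over the control (horizontal axis) for the pathway genes at 10 CPM or more, by list, with a line at each median and dotted lines at 2-fold. ACAP1 lies farthest right at 2.26 and ARRB1 farthest left at -1.28, while no ARF GTPase, other exchange factor or PI3 kinase gene passes a dotted line.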

How the data were processed

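Single-cell libraries were built by the Chromium 3' assay (10x Genomics) from lanes loaded with pooled human and mouse cells. Per the labels, Cell Ranger 3.0.2 was run by the authors on hg19 and mm10, and the deposited values are raw counts of UMIs with no normalization. A second deposited table gives human and mouse UMI counts per barcode. The cell limits followed the study (more than 2000 and fewer than 6000 genes, mitochondrial UMIs under 20%, mouse UMIs under 500). CPM were taken from UMIs summed over the kept cells, and ratios used no pseudocount. For counts of genes past 2-fold, values under 3 UMIs were set to 3. Intervals (95%) are Poisson, Clopper-Pearson or conditional binomial, and no test between groups was made. Phases were scored with scanpy 1.11.5 over both libraries. Annotation was GENCODE v44lift37 (55538 of 57905 identifiers matched), and promoter windows came from RefSeq, which had entries for 4 of the 5 genes used here. The members and lists were chosen with earlier results of these data known. The named genes were the 5 genes, RUNX1, up to 4 measured genes of each list with the largest ratio in size, genes within 500 kb of CYTIP at 10 CPM or more, and for each member the 5 genes with the highest r. Ratios and intervals were tested on simulated Poisson counts. These lack the extra spread between cells that CYTIP showed, so they check the computation and not the fit of the intervals to these data. Alternatives changed the scaling (TMM by edgeR 4.0.16 in R 4.3.3), cell limits, thinning, gene floor and phase calls. The 10 ChIP-seq samples were not analysed here, and 1 listed gene is not reported here. Scripts ran in Python 3.11.15 with pandas 2.3.3, scipy 1.17.1, numpy 2.4.6 and matplotlib 3.10.9.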

Additional observations from a re-analysis of the deposited data

Results flagged for a closer look

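Barcodes outside the cell limits, 691 in the RUNX1-labelled library and 475 in the control, were left out of the comparisons of the report, and entered only the alternative that took all deposited barcodes. The share of all genes above the control level in them was not computed, so the 5 genes are given one by one as a description. CYTIP had 76.9 CPM (471 UMIs) in those of the RUNX1-labelled library and 1.93 CPM (3 UMIs) in those of the control, with a counting interval of the log2 ratio from 3.76 to 7.60. CYTH1 had 25.8 CPM in the RUNX1-labelled library and 11.6 CPM in the control, and CYTH2 had 27.6 CPM in the RUNX1-labelled library and 14.1 CPM in the control. CYTH4 had 4.25 CPM (26 UMIs) in the RUNX1-labelled library and 0.642 CPM (1 UMI) in the control, with a counting interval of the log2 ratio from 0.12 to 8.08. CYTH3 was not above the control level, with 6.53 CPM in the RUNX1-labelled library and 7.06 CPM in the control. Most of these barcodes had too few genes, 471 in the RUNX1-labelled library and 469 in the control.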

How the results depend on the processing

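The log2 ratio of CYTIP over all cells was 5.46 and ranged from 5.33 to 6.07 over 7 alternatives, with 6.07 at a mitochondrial limit of 10%, 5.80 in cells thinned to 8000 UMIs and 5.85 when each cell weighed the same. In cycling cells it ranged from 3.48 to 3.81 and in non-cycling cells from 6.003 to 6.363, over 5 alternatives each. The share of cells with a CYTIP UMI was 47.6% without thinning and 29.0% at 5000 UMIs in the RUNX1-labelled library, and 2.32% without thinning in the control. CYTH1 ranged from 1.12 to 1.64, CYTH2 from -0.0042 to 0.43, CYTH3 from 0.034 to 0.66 and CYTH4 from 3.75 to 4.76 over all cells. Counts of genes past 2-fold moved more. Over all cells 413 were higher and 327 lower, against 504 lower with TMM scaling, 201 lower with median-of-ratios scaling, 916 higher and 178 lower without mitochondrial and ribosomal protein genes in the totals, 697 higher at a mitochondrial limit of 10%, and 1608 higher and 502 lower at a gene floor of 1 CPM. In cycling cells 138 were higher and 118 lower, against 73 lower with median-of-ratios scaling and 329 higher without those genes in the totals, where non-cycling cells had 1338 higher against 650. These causes were not tested. No paired analysis was possible because each group is 1 library, and for the same reason no replicate could be left out. Depth limits CYTH4 and the non-cycling control cells, where CYTIP had 5 UMIs.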
